A study of Mus musculus with 6 samples.

Results

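*Hoxa5*, *Hoxa7*, *Hoxa9*, *Hoxa10*, *Hoxb4*, *Meis1*, *Hlf*, *Mecom* and *Mllt3* encode transcription and chromatin factors linked to the self-renewal of hematopoietic stem cells (HSCs). These 9 genes, of 38293 in the deposited gene counts, were chosen by symbol and mapped to their mouse Ensembl gene identifiers. Their mRNA was measured in sorted Lin-cKit+ fetal liver (FL) cells, the lineage-negative, c-Kit-positive fraction that holds hematopoietic stem and progenitor cells, from 3 wt embryos and 3 hnRNP L deficient embryos at embryonic day 14.5. All 6 embryos were labelled as C57BL/6, and each library came from 1 embryo. The deficient embryos were VavCre+hnRNP L fl/fl, in which Cre recombinase expressed from the hematopoietic Vav promoter deletes the floxed *Hnrnpl* alleles, and their labels read hnRNPL Knock-Out. The control labels read hnRNPL wild-type, whereas a figure legend of the study gives the wt RNA-Seq samples as L fl/fl, that is with floxed alleles. The tissue label of every sample reads whole embryo whereas its source reads fetal liver cells, and the sorted fraction is taken from the methods of the study. In the embryo numbers of the labels, wt replicate 1 shares its first part with deficient replicate 1, and deficient replicate 2 with replicate 3. What this part stands for is not stated. The edgeR comparison did not use it, so its intervals treat the 6 embryos as independent.

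Hox proteins are homeodomain transcription factors encoded in separate chromosomal clusters, and those of the middle of the A cluster are best known in blood for their high levels in stem and early progenitor cells, with a decline on differentiation. They bind DNA together with TALE homeodomain proteins, among which Meis1 and the Pbx proteins are the main partners in hematopoietic cells. Their transcription is maintained by the MLL (Kmt2a) and menin complex and by Dot1l, a histone methyltransferase that the YEATS protein Mllt3 (AF9) brings to chromatin. Hlf, a bZIP factor of the PAR family, and Mecom (Evi1), a zinc finger protein, also mark HSCs and are needed for their maintenance.

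Reads counted on genes ranged from 55952160 to 76157226 per library, and 3 reads corresponded to between 0.0402 and 0.0540 CPM, the counts scaled to a common library size. *Hnrnpl* itself was at 537 ± 13.2 CPM in wt and 267 ± 23.2 CPM in deficient libraries (mean ± SD, n = 3 each), which left 49.7% of the wt level. This count covers the whole gene and does not separate deleted from remaining exons. In bulk samples such as these, fewer cells of a type and less RNA per cell cannot be told apart.

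All 9 genes passed the expression filter, which keeps a gene that is high enough in either genotype. *Hoxa7*, *Hoxa9*, *Meis1* and *Hlf* were lower in hnRNP L deficient cells at an adjusted p-value under 0.05 (edgeR quasi-likelihood test, Benjamini-Hochberg over all genes tested), and none was higher. These are 4 of 9 genes, beside 9.85% of the 14396 genes tested that were called lower and 9.32% called higher. At an unadjusted p-value under 0.05, 6 of the 9 were lower and 0 higher, beside 2888 lower and 2529 higher of all genes tested. DESeq2 and limma-voom also called 0 of the 9 higher. Over all genes, DESeq2 called 1924 higher and 2227 lower of 20806, and limma-voom with sample weights 2576 and 2774 of 14396. The same totals stand beside the unadjusted, DESeq2 and limma-voom counts of the gene lists below. In 6 of the 9 every deficient library was below every wt library, as was the case for 22.7% of all genes tested. The median log2 fold change was -1.32 over the 9 genes and -0.03 over all genes tested. The 9 genes were chosen with earlier results of these data known, so these counts are a description and not a test. *Mecom* and *Mllt3* stood apart from the others with the smallest differences.

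**Figure D1:**
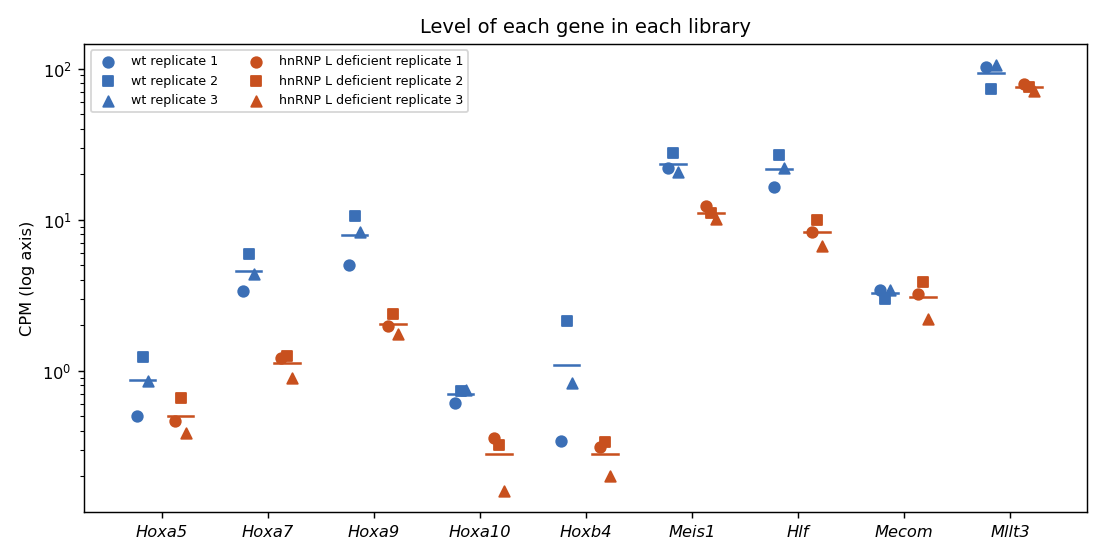
CPM (log axis) of the 9 genes in each of the 6 libraries, with wt in blue, hnRNP L deficient in orange and horizontal lines at the group means. The groups were separate for *Hoxa7*, *Hoxa9*, *Hoxa10*, *Hoxb4*, *Meis1* and *Hlf* and overlapped for *Hoxa5*, *Mecom* and *Mllt3*. For *Hoxb4* the lowest wt library (0.342 CPM) lay next to the highest deficient one (0.337 CPM).

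Among the Hox genes, the 2 that were called lie next to each other in the A cluster. *Hoxa9* (ENSMUSG00000038227, chr6:52223100-52231089 of GRCm38, minus strand), the Hox gene most closely tied to HSC expansion and to leukemia driven by MLL fusions, was at 4.99, 10.5 and 8.27 CPM in wt replicates 1 to 3 and at 1.97, 2.36 and 1.74 CPM in the deficient libraries, listed in the same way. The lowest wt library was above every deficient library, and the deficient libraries lay closer together than the wt libraries. The log2 fold change was -1.97 (standard error 0.30, 95% interval -2.68 to -1.26, edgeR adjusted p = 0.0146), so that 25.5% of the wt mean was left. The gene was covered by 277, 630 and 601 reads in wt and 127, 154 and 130 reads in deficient libraries.

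*Hoxa7* (ENSMUSG00000038236, chr6:52214491-52221854, minus strand), the next gene of the cluster on the 3′ side, was at 3.35, 5.89 and 4.38 CPM in wt and at 1.21, 1.25 and 0.898 CPM in deficient libraries. Every deficient library was again below every wt library, with the same library highest in wt as for *Hoxa9*. It fell by 2.02 on the log2 scale (standard error 0.29, 95% interval -2.69 to -1.34, edgeR adjusted p = 0.0138), leaving 24.7% of the wt mean. The antisense gene *Hoxaas3* covers 20.4% of the exon bases of *Hoxa7*. The libraries were made with a stranded kit, but whether the counting used the strand is not given in the sources used here. The CPM ratio of *Hoxa7* to *Hoxa9* was 0.529 to 0.671 in wt and 0.515 to 0.614 in deficient libraries, ranges that overlapped.

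*Hoxa10* (ENSMUSG00000000938, chr6:52231197-52240854, minus strand), which lies on the other side of *Hoxa9* and acts in early myeloid and megakaryocytic progenitors, was far less covered, with 34, 44 and 54 reads in wt and 23, 21 and 12 in deficient libraries. These gave 0.612, 0.734 and 0.743 CPM in wt and 0.357, 0.321 and 0.161 CPM in deficient libraries. The groups did not overlap, but the difference of -1.32 on the log2 scale (standard error 0.41, 95% interval -2.28 to -0.35) did not pass the adjusted threshold (edgeR adjusted p = 0.0631). *Hoxa5* (ENSMUSG00000038253, chr6:52201754-52204587, minus strand), known in blood for a role in myeloid against erythroid fate, was at 0.504, 1.23 and 0.853 CPM in wt and 0.466, 0.658 and 0.388 CPM in deficient libraries. Deficient replicate 2 was above wt replicate 1, and the difference of -0.78 (standard error 0.43, 95% interval -1.79 to 0.23, edgeR adjusted p = 0.225) was not called.

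*Hoxb4* (ENSMUSG00000038692, chr11:96318267-96321638, plus strand), whose forced expression expands HSCs, varied most between wt embryos, at 0.342, 2.12 and 0.826 CPM, a 6.19-fold range. It was at 0.311, 0.337 and 0.201 CPM in deficient libraries. Wt replicate 1, with 19 reads, was scarcely above deficient replicate 2, with 22 reads from a deeper library. The log2 fold change of -1.95 was as large as that of *Hoxa9*, but its standard error was 0.67 (95% interval -3.53 to -0.37), and it was not called (edgeR adjusted p = 0.0794). DESeq2 (adjusted p = 0.0233), limma-voom with sample weights (adjusted p = 0.0254) and the edgeR test without wt replicate 1 (adjusted p = 0.0204) called it lower. With limma-voom and the shared first part of the embryo number as a random effect, the difference was -0.62 (adjusted p = 0.435). Without wt replicate 2 the difference shrank to -1.06 (edgeR adjusted p = 0.191).

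*Meis1* (ENSMUSG00000020160, chr11:18879817-19018985, minus strand), the DNA-binding partner of Hoxa9, was at 21.96, 27.72 and 20.55 CPM in wt and 12.36, 10.99 and 10.03 CPM in deficient libraries. The groups were separate, and 47.5% of the wt mean was left, a log2 fold change of -1.07 (standard error 0.15, 95% interval -1.43 to -0.71, edgeR adjusted p = 0.0138). The fall was smaller than that of its partner on the same scale, and the CPM ratio of *Hoxa9* to *Meis1* was 0.227, 0.379 and 0.403 in wt and 0.160, 0.215 and 0.174 in deficient libraries. These ratios did not overlap, and the exact two-sided permutation test gave p = 0.1, the smallest value that 3 against 3 allows. The same-strand gene *Gm37818* covers 9.77% and the antisense gene *Gm16140* covers 8.51% of the *Meis1* exon bases.

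*Hlf* (ENSMUSG00000003949, chr11:90336536-90390895, minus strand), a marker of the most immature HSCs, was at 16.5, 26.8 and 22.1 CPM in wt and 8.25, 9.90 and 6.67 CPM in deficient libraries. The lowest wt library was above every deficient library. The log2 fold change was -1.40 (standard error 0.22, 95% interval -1.92 to -0.88, edgeR adjusted p = 0.0148), which left 38.0% of the wt mean.

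The other two factors were not called. *Mecom* (ENSMUSG00000027684, chr3:29951296-30548008, minus strand) was at 3.44, 3.00 and 3.41 CPM in wt and 3.20, 3.86 and 2.20 CPM in deficient libraries, so that deficient replicate 2 was the highest and replicate 3 the lowest of all 6. The difference was -0.09 on the log2 scale (standard error 0.25, edgeR adjusted p = 0.821), and its 95% interval of -0.68 to 0.50 still allows a change of either sign. The interval did not reach the size of the fall in *Hlf* or *Meis1*. *Mllt3* (ENSMUSG00000028496, chr4:87769925-88033364, minus strand), needed for HSC maintenance in culture, was the most abundant at 102, 72.7 and 105 CPM in wt and 78.6, 75.3 and 70.7 CPM in deficient libraries. Wt replicate 2 fell within the range of the deficient libraries. The log2 fold change was -0.32 (standard error 0.14, 95% interval -0.65 to 0.02, edgeR adjusted p = 0.149), and without wt replicate 2 it was -0.47 and was called lower (edgeR adjusted p = 0.0066). It was also called lower by limma-voom with sample weights (-0.45, adjusted p = 0.0059) and with the shared part of the embryo number as a random effect (-0.35, adjusted p = 0.0362).

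**Figure D2:**
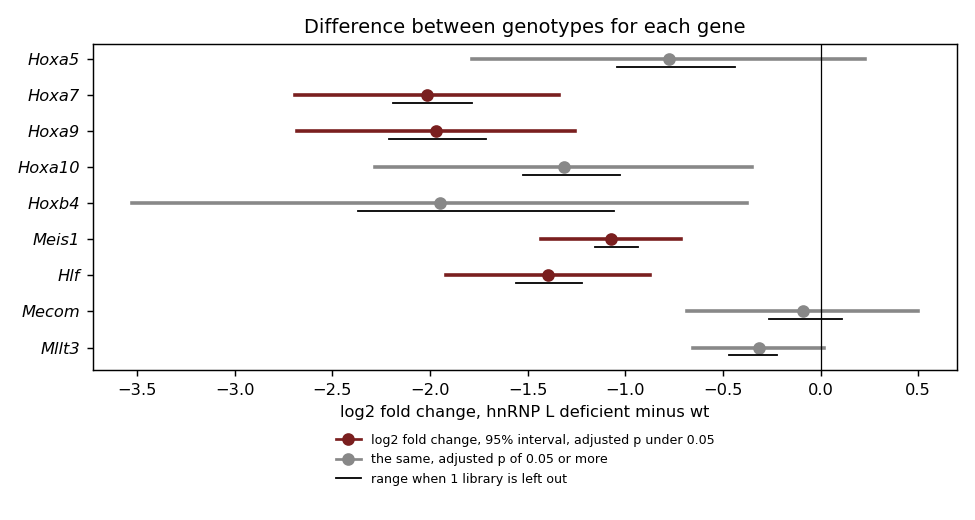
Log2 fold change of each gene (hnRNP L deficient minus wt) with its 95% interval from the edgeR fit (thick lines) and the range of the estimate when 1 library is left out (thin lines). The 4 called genes lie between -2.02 and -1.07 with intervals below 0, *Hoxa10* and *Hoxb4* have intervals below 0 that did not pass adjustment, and the intervals of *Hoxa5*, *Mecom* and *Mllt3* include 0.

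The 4 calls depended on which libraries entered the fit. Without wt replicate 1 or without wt replicate 2, *Hoxa7*, *Hoxa9*, *Meis1* and *Hlf* were all called lower. Without wt replicate 3, or without any 1 of the 3 deficient libraries, none of the 9 genes was called, and across these fits the adjusted p-values of the 4 genes lay between 0.0530 and 0.0927. Their unadjusted p-values reached at most 0.0029 and their log2 fold changes stayed between -2.21 and -0.93 over all 6 fits. In the same fits the count of all genes called lower dropped from 1418 to between 0 and 2, so that calls of the gene lists given below rest on the same libraries.

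The promoters of the 4 genes called lower were read to show what lies before their start sites. Each sequence is the 250 bases before the RefSeq start in GRCm38.p6, written 5′ to 3′ on the strand of the gene, with motif matches in capitals. The windows are chr6:52218574-52218823 for *Hoxa7*, chr6:52227371-52227620 for *Hoxa9*, chr11:19018970-19019219 for *Meis1* and chr11:90390918-90391167 for *Hlf*, all on the minus strand. The 50 bases after the RefSeq start of *Hoxa7* and of *Hlf* were found in no GENCODE transcript of the gene, and the *Hoxa7* and *Hoxa9* windows lie within the spans of these genes given above.
Hoxa7: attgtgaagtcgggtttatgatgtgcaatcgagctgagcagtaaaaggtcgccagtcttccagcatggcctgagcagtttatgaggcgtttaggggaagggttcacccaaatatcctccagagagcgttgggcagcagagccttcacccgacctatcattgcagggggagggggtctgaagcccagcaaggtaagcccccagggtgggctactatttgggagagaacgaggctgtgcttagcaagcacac
Hoxa9: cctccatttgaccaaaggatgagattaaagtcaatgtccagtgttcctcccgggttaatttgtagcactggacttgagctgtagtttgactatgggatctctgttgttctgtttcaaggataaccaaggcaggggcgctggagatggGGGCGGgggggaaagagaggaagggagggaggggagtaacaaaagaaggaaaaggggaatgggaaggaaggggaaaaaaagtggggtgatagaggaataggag
Meis1: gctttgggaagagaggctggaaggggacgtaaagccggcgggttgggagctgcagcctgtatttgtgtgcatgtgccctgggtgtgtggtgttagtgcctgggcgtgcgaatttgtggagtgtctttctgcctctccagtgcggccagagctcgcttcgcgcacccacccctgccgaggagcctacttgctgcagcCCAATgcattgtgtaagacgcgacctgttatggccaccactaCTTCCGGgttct
Hlf: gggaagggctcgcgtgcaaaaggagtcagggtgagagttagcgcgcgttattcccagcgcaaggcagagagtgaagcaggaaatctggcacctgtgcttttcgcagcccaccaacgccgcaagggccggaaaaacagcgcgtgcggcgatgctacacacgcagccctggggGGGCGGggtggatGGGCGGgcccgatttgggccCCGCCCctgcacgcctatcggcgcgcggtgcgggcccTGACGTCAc

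The letters searched on both strands were those of Meis (TGACAG), Pbx-Hox (TGATTNAT), PAR bZIP (TTACGTAA), ETS proteins (CCGGAAG), the GATA family (AGATAA), as well as of core promoter elements, namely TATAAA for the TBP box, CCAAT for the NF-Y box, GGGCGG for the Sp1 box and TGACGTCA for the cyclic AMP response element. No matches to different motifs overlap in the sequences shown. The *Hoxa7* window held none of them and the *Hoxa9* window held 1 Sp1 box, a motif present in 32.7% of the 32851 promoter windows searched. The *Meis1* window held 1 NF-Y box (33.8% of all windows) and 1 ETS motif (6.91%). The *Hlf* window held 3 Sp1 boxes and 1 cyclic AMP response element (1.55%). None held the Meis motif (15.9% of all windows), the Pbx-Hox motif (2.82%), the PAR bZIP motif (0.113%), the GATA motif (9.99%) or the TBP box (12.4%). CpG dinucleotides numbered 7, 3, 13 and 26 in *Hoxa7*, *Hoxa9*, *Meis1* and *Hlf*, where the median window held 6. No motif was shared by all 4 windows, and a match to letters is a description only.

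Levels of different genes were compared per kilobase of exon (FPKM, from the normalized counts and the union of annotated exons). In wt cells *Mllt3* was highest at 7.77 ± 1.49 FPKM (mean ± SD, n = 3), followed by *Hlf* at 3.26 ± 0.77, *Meis1* at 2.22 ± 0.36, *Hoxa7* at 1.58 ± 0.44 and *Hoxa9* at 1.42 ± 0.50. *Hoxa5* at 0.460 ± 0.19, *Hoxb4* at 0.427 ± 0.36, *Mecom* at 0.264 ± 0.020 and *Hoxa10* at 0.213 ± 0.022 FPKM were lower. *Hoxa7* and *Hoxa9* differed by less than their SD, although *Hoxa7* was the higher of the pair in 3 of 3 wt libraries. *Hoxa5*, *Hoxb4* and *Mecom* could not be ordered, since each neighbouring pair kept its order in 2 of 3 libraries. In deficient cells the order was *Mllt3* (6.24 ± 0.33 FPKM), *Hlf* (1.24 ± 0.24), *Meis1* (1.06 ± 0.11), *Hoxa7* (0.390 ± 0.068), *Hoxa9* (0.363 ± 0.056), *Hoxa5* (0.269 ± 0.074), *Mecom* (0.248 ± 0.067), *Hoxb4* (0.110 ± 0.028) and *Hoxa10* (0.0856 ± 0.032). *Mecom* was above *Hoxb4* in 3 of 3 deficient libraries. By full exon length *Hlf* exceeded *Meis1* in every library of both genotypes. When the exon bases that *Meis1* shares with *Gm37818* were left out of its length, *Meis1* was instead above *Hlf* in deficient replicates 1 (1.30 against 1.23 FPKM) and 3 (1.06 against 0.999 FPKM), so these neighbours could not be ordered in deficient cells.

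Exon bins, stretches of exon counted separately, gave a further view of the same RNA in 5 libraries, since exon bins of deficient replicate 1 were not analysed here. The 9 genes had 162 bins, of which 76 had a mean of at least 10 reads and 75 were tested. *Hoxa10* had only 1 such bin and was not tested. Usage of a bin relative to the rest of its gene was not called changed in any of the 75 bins by edgeR's diffSpliceDGE, none had an unadjusted p-value under 0.05, and limma's diffSplice also called 0. Over all 176996 bins tested, 0.0288% were called. The smallest unadjusted p-value was 0.0987, for bin 9 of *Hlf*. That bin was at 0.720, 1.07 and 1.43 CPM in wt and 0.995 and 0.576 CPM in deficient replicates 2 and 3, a change in usage of 0.89 on the log2 scale with overlapping groups.

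The level of each bin relative to wt, without correction for the gene, showed where along the genes the difference lay. All 4 tested bins of *Hoxa7* and 8 of 9 of *Hoxa9* were lower in both deficient libraries than in every wt library, with 14.8% to 28.3% and 16.2% to 35.3% of the wt mean left. How often the bins of all genes lay in this order was not computed. Bins of a gene also repeat the difference of that gene, so such counts are a description and not a test. The *Hoxa9* unit merges 4 overlapping genes, *Mir196b* and 2 without a symbol among them, whose own gene counts came to between 9 and 61 reads per library. The unit as a whole kept 25.2% of the wt level, where the gene count of *Hoxa9* kept 25.9% in the same 5 libraries. In *Meis1*, 18 of 19 bins were lower in both deficient libraries than in every wt library (33.97% to 56.56% of wt), and in *Hlf* 6 of 9 (31.8% to 73.3%). The 2 tested bins of *Hoxb4*, in a unit merged with *Mir10a*, were at 22.8% and 24.8% of wt, and those of *Hoxa5* at 49.9% and 91.4%. Of the 11 tested bins of *Mecom* 1 was below in both deficient libraries, and the bins ranged from 51.9% to 212% of wt around a median of 98.5%, at a median of 13.8 reads per bin. *Mllt3* had 4 of 19 such bins, a median of 85.6% and much deeper coverage, with a median of 280 reads per bin.

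**Figure D3:**
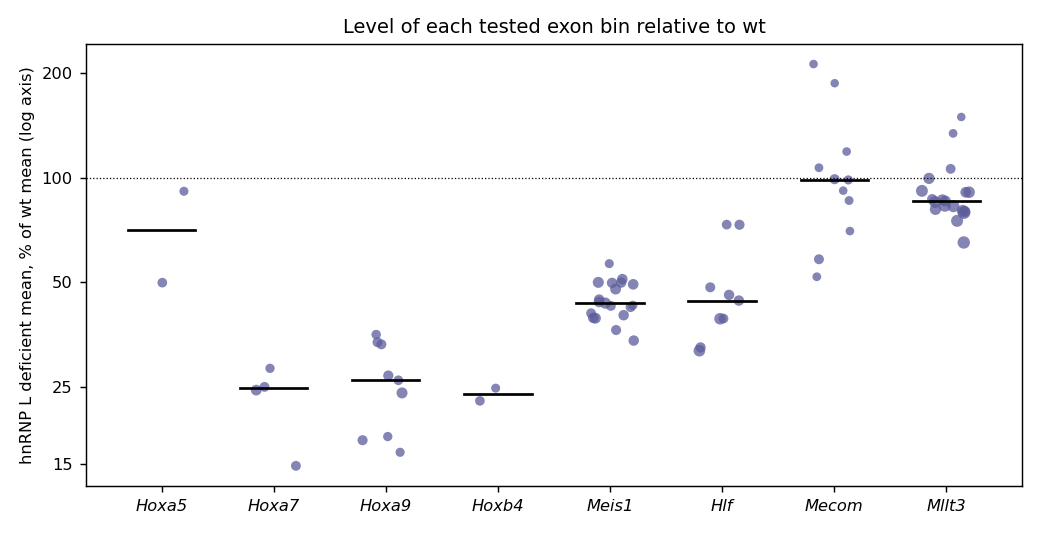
Mean CPM of each tested exon bin in the 2 hnRNP L deficient libraries as a percentage of the mean in the 3 wt libraries (log axis), by gene, with larger points for bins with more reads and lines at the medians. Bins of *Hoxa7*, *Hoxa9*, *Hoxb4*, *Meis1* and *Hlf* all lie under 100%, whereas those of *Mecom* and *Mllt3* lie on both sides of it.

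The wider Hox family had few reads in these cells. Of 38 Hox genes in the counts, 17 had no read in any library, for which 3 reads of the total set the limit of detection, and 8 passed the expression filter (median log2 fold change -1.57, with 2 called lower by edgeR, and 0 higher by edgeR, DESeq2 or limma-voom or at an unadjusted p-value under 0.05). The filter keeps genes that are high in only 1 genotype, so these 8 do not stand for the family. They were the 5 members and *Hoxa2*, *Hoxa3* and *Hoxa6*, which are named although the rule for named genes did not select them. *Hoxa6* was at 0.432, 0.684 and 0.399 CPM in wt and 0.280, 0.321 and 0.174 CPM in deficient libraries, groups that did not overlap (log2 fold change -0.96, edgeR adjusted p = 0.150). *Hoxa3* (-0.77) and *Hoxa2* (-1.82) overlapped between the groups and were not called. Reads of all Hox genes summed to 11.5, 22.7 and 17.3 CPM in wt and 5.48, 6.17 and 4.21 CPM in deficient libraries. *Hoxa7* and *Hoxa9* made up 72.2% to 73.1% of this sum in wt and 58.1% to 62.7% in deficient libraries. The Hoxc and Hoxd clusters together gave between 0 and 12 reads per library.

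Among 11 TALE homeobox genes, the class of Hox partners, 10 were tested, *Meis1* among them. By edgeR 0 were called higher, with 0 higher also by DESeq2, 1 by limma-voom and 0 at an unadjusted p-value under 0.05. *Pbx2*, the most abundant of the class, was at 112 to 146 CPM in wt and 98.5 to 105 CPM in deficient libraries without passing the threshold (-0.34, edgeR adjusted p = 0.0600). *Pbx3* (0.32, edgeR adjusted p = 0.258) and *Pknox1* (0.12, edgeR adjusted p = 0.434), a relative of *Meis1*, were not called, nor was *Meis2* (1.36, edgeR adjusted p = 0.179), which stayed under 1 CPM in every library. The median log2 fold change of the 10 was -0.01.

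The families of *Hlf*, *Mllt3* and *Mecom* held few calls. Of the 4 PAR bZIP family genes, which include the related repressor *Nfil3*, *Hlf* alone was called (median log2 fold change -0.74). *Tef* was at 45.9 to 52.4 CPM in wt and 51.0 to 53.6 CPM in deficient libraries (log2 fold change 0.10, edgeR adjusted p = 0.367), and *Dbp* differed by -0.08 (edgeR adjusted p = 0.866). *Nfil3* differed by -1.80 with a standard error of 0.81 (edgeR adjusted p = 0.159), being high in wt replicate 2 alone at 10.1 CPM. Of the 4 YEATS proteins (median 0.04) 0 were called by edgeR or DESeq2 and 1 by limma-voom (*Mllt3*), and 1 had an unadjusted p-value under 0.05. *Mllt1* (ENL), the close relative of *Mllt3*, was higher in every deficient library (118 to 129 CPM) than in every wt library (98.4 to 114 CPM) without being called (0.21, edgeR adjusted p = 0.110). Of 11 relatives and partners of *Mecom*, *Mecom* itself not among them, 2 were called higher (median 0.14), beside 9.32% of all genes tested. These were *Ctbp2*, a corepressor, at 39.6 to 52.1 CPM in wt and 59.3 to 65.4 CPM in deficient libraries (0.48, edgeR adjusted p = 0.0306) and *Prdm15* (0.32, edgeR adjusted p = 0.0475). *Prdm16*, the paralog of *Mecom* that also acts in HSCs, differed by 0.15 (edgeR adjusted p = 0.621). That *Hlf* or *Mecom* differed from its relatives was not tested.

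Of the 15 genes of the MLL and menin complex 1 was called higher, the core subunit *Rbbp5* (85.7 to 96.5 CPM in wt, 107 to 109 CPM in deficient libraries, log2 fold change 0.26, edgeR adjusted p = 0.0437), and 0 lower. Over all genes tested 9.32% were called higher and 9.85% lower, so 1 of 15 does not set this list apart. With DESeq2 2 were called higher and 1 lower, with limma-voom and sample weights 4 and 1, and at an unadjusted p-value under 0.05 3 were higher and 2 lower. Of 16 tested genes of the Dot1l and elongation complexes 0 were called by edgeR, with 6 higher and 3 lower at an unadjusted p-value under 0.05, 2 higher and 2 lower by DESeq2 and 5 and 4 by limma-voom. The median log2 fold changes of these lists were 0.12 and 0.01. *Cdx1*, *Cdx2* and *Cdx4*, activators of Hox clusters in the embryo, had no read in any library, and 0 of the 5 tested Cdx and retinoid regulators were called by edgeR, with 1 lower at an unadjusted p-value under 0.05, 1 by DESeq2 and 2 by limma-voom.

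Genes reported as targets of Hoxa9 and Meis1 contained more calls, where over all genes tested 9.85% were called lower and 9.32% higher. This list, too, was chosen with earlier results of these data known, so its counts are a description. Of 19 tested, 9 were lower and 0 higher (1 higher at an unadjusted p-value under 0.05, 1 by DESeq2 and 2 by limma-voom), with a median log2 fold change of -0.85. The largest fall was that of *Flt3*, the receptor of early lymphoid and myeloid progenitors, at 17.8, 44.0 and 28.2 CPM in wt and 2.86, 3.40 and 2.56 CPM in deficient libraries (log2 fold change -3.35, standard error 0.34, edgeR adjusted p = 0.0099). *Cd34*, a surface marker of progenitors, fell by 2.21, *Erg*, an ETS factor of HSCs, by 1.73 and *Camk2d*, a calcium-dependent kinase, by 1.47 on the log2 scale (edgeR adjusted p = 0.0171, 0.0179 and 0.0168). Whether these falls followed from those of *Hoxa9* and *Meis1* was not tested. Some targets had positive log2 fold changes without being called. *Myc* was at 412, 337 and 470 CPM in wt and 603, 517 and 550 CPM in deficient libraries (0.45, edgeR adjusted p = 0.0539). *Ccnd3* (0.18) and *Hif1a* (0.13) were also higher in every deficient library than in every wt library, and *Cdk6* (0.08) and *Lmo2* (0.05) overlapped. The rule for named genes did not select these targets either. Of 19 tested stem cell markers 9 were lower and 0 higher (0 higher at an unadjusted p-value under 0.05 and by DESeq2 and limma-voom), with a median of -0.57. *Fgd5*, a marker of HSCs, fell from 9.07 to 11.6 CPM in wt to 2.97 to 3.32 CPM in deficient libraries (-1.67, edgeR adjusted p = 0.0099), and *Robo4* (-1.46), *Angpt1* (-1.42) and *Meg3* (-1.35) had the next largest falls. Other genes of this list went the other way without being called. *Slamf1* was at 1.75 to 3.25 CPM in wt and 3.66 to 4.43 CPM in deficient libraries (0.54, edgeR adjusted p = 0.198). *Procr* (0.46), *Pdzk1ip1* (0.34), *Prdm16* (0.15) and *Gfi1b* (0.05) also had positive log2 fold changes. Except for *Prdm16*, these are named although the rule for named genes did not select them. 

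**Figure D4:**
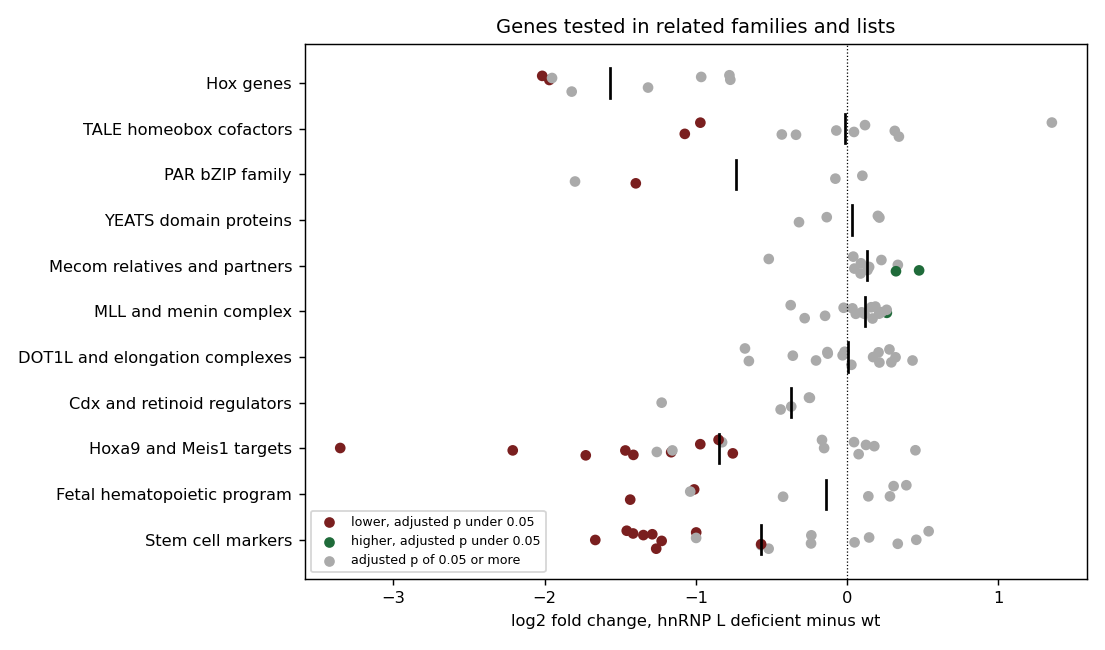
Log2 fold change (hnRNP L deficient minus wt) of every tested gene in 11 lists of related genes, colored by the edgeR call, with black lines at the list medians. *Meis1* is at -1.07 among the TALE cofactors, and the MLL and Dot1l lists center near 0 (medians 0.12 and 0.01). Genes can be in more than 1 list.

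Genes whose pattern over the 6 libraries was most like that of each member were found by the root mean square difference of log2 CPM after each gene was centered on its mean, among 11525 or 11526 other genes. For *Hoxa7* they were *Fscn1* (0.049), *Kansl1l* (0.105) and *Adgrl4* (0.119), and for *Hoxa9* *Kansl1l* (0.093), *Pdcd4* (0.108) and *Klhl24* (0.112). The distance between *Hoxa7* and *Hoxa9* themselves was 0.127, the smallest among the 36 pairs of members. *Meis1* was nearest to *Itpr2* (0.066), *Trim34a* (0.071) and *Gimap1* (0.087), and *Hlf* to *Fam221a* (0.097), *Phf21a* (0.098) and *Camk2d* (0.106), the last of which is also on the list of Hoxa9 and Meis1 targets. *Hoxa10* was nearest to *Stard9* (0.082), *Zcchc24* (0.113) and *Obsl1* (0.118), and *Hoxb4* to *Gm13012* (0.111), *Rab11fip4* (0.170) and *Zfp467* (0.176). *Hoxa5* was nearest to *Cbx8* (0.114), *Prickle3* (0.119) and *Dusp6* (0.120), *Mecom* to *Tmem106a* (0.103), *Spata1* (0.116) and *Parp9* (0.141), and *Mllt3* to *mt-Nd5* (0.016), *Jmjd1c* (0.031) and *Itga4* (0.036). These distances describe 6 libraries that differ by genotype, so genes with a like fold change come out near each other.

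Levels of marker genes differed between libraries along with the 4 genes that fell. The counts of called markers stand beside 9.85% of all genes tested that were called lower and 9.32% called higher. *Kit*, which encodes the c-Kit used for the sort, was at 423 to 656 CPM in wt and 325 to 368 CPM in deficient libraries (log2 fold change -0.62, edgeR adjusted p = 0.0402). Progenitor identity markers, *Kit* and *Cd34* among them, summed to 1909 to 2419 CPM in wt and 1687 to 1822 CPM in deficient libraries, and 4 of 10 were called lower. Stem cell markers summed to 325 to 390 CPM in wt and 268 to 278 CPM in deficient libraries. Erythroid markers (3669 to 4289 and 3422 to 4408 CPM, 2 of 15 called lower) and megakaryocyte markers (130 to 209 and 130 to 178 CPM, 2 of 10 lower and 2 higher) overlapped. Markers of lymphoid cells (7.33 to 35.6 against 2.41 to 4.15 CPM, 3 of 7 called lower, *Dntt* at 0), macrophages (12.3 to 36.1 against 4.43 to 7.68 CPM, 3 of 9), hepatoblasts (143 to 277 against 37.0 to 87.3 CPM, 3 of 10) and endothelium (37.7 to 85.7 against 21.3 to 24.4 CPM, 4 of 10) were lower in every deficient library than in every wt library. So were mesenchymal markers (10.4 to 19.0 against 7.27 to 9.17 CPM), with 1 gene called in each direction, and the stem cell and progenitor identity sums given above. Mast cell and basophil markers overlapped (23.4 to 93.7 against 14.7 to 61.9 CPM) and 0 of 7 were called by edgeR or limma-voom, 1 was called higher by DESeq2, and 1 was higher and 1 lower at an unadjusted p-value under 0.05. The part of these differences in the falls of *Hoxa7*, *Hoxa9*, *Meis1* and *Hlf* was not tested.

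Wt replicate 2 stood apart. Its granulocyte and monocyte markers summed to 9776 CPM, against 637 and 1631 CPM in the other wt libraries and 264 to 1113 CPM in deficient libraries. Of these markers 2 of 15 were called lower, beside 9.85% of all genes tested. Wt replicate 2 also had the highest levels of *Hoxa5*, *Hoxa7*, *Hoxa9*, *Hoxb4*, *Meis1* and *Hlf* and the lowest of *Mecom* among wt and of *Mllt3* among wt. Without it the log2 fold changes were -1.79 for *Hoxa7*, -1.71 for *Hoxa9*, -0.93 for *Meis1* and -1.22 for *Hlf* (edgeR adjusted p = 0.0066, 0.0076, 0.0053 and 0.0084).

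**Figure D5:**
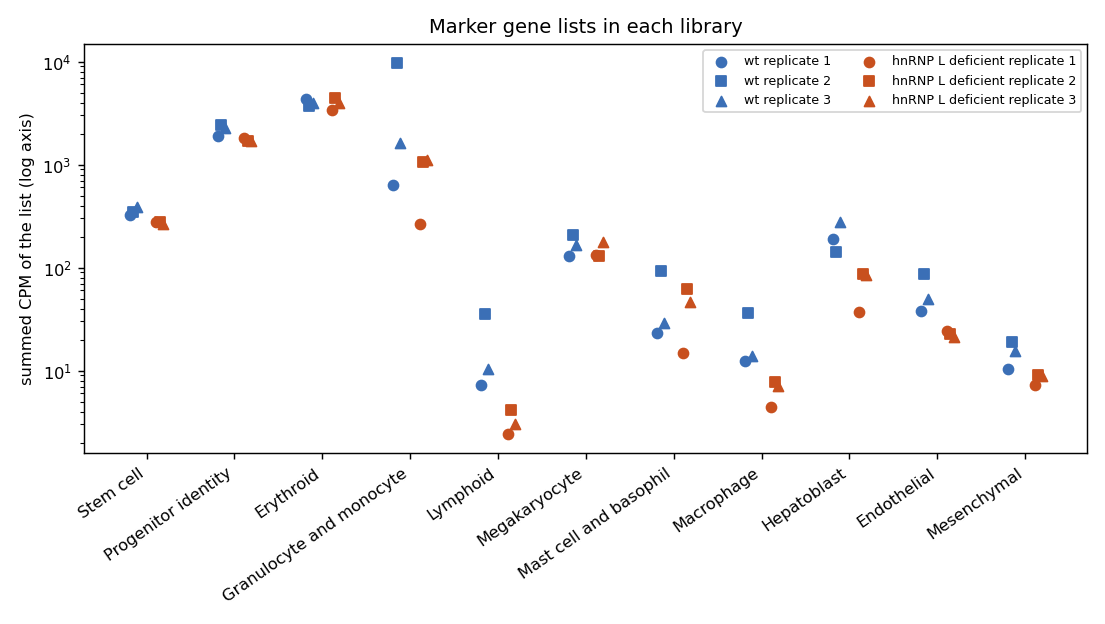
Summed CPM (log axis) of 11 marker gene lists in each library, with wt in blue and hnRNP L deficient in orange. Wt replicate 2 is far above the other libraries for granulocyte and monocyte markers (9776 CPM). Stem cell, progenitor identity, lymphoid, macrophage, hepatoblast, endothelial and mesenchymal sums are lower in all 3 deficient libraries than in all 3 wt libraries.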

How the data were processed

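RNA of sorted Lin-cKit+ FL cells was sequenced from 3 wt and 3 hnRNP L deficient E14.5 embryos with a stranded mRNA kit. The authors deposited raw counts per Ensembl gene (HTSeq) and per exon bin (DEXSeq script), made from alignments to GRCm38 by TopHat2 2.0.10. The Ensembl release and the counting options are not given in the sources used here. Between 46.7% and 53.3% of reads were not counted on a gene and were left out. Most of these were listed as not uniquely aligned, 39.8% to 44.7% of all reads.

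Gene counts were tested with edgeR 4.0.16 in R 4.3.3 (TMM, default expression filter, robust quasi-likelihood test, Benjamini-Hochberg over 14396 genes). Standard errors were derived from the F statistic. The exact permutation test used log2 of the CPM ratio, and distances between genes used log2 CPM after adding 0.1. Exon bins averaging 10 or more reads were tested with diffSpliceDGE. Alternatives used DESeq2 1.42.0, limma 3.58.1, other factors and filters, and fits without each library. The steps were tested on simulated data. Between 55952160 and 76157226 reads per library were counted on genes. *Hoxa5*, *Hoxa10* and *Hoxb4* had 12 to 127 reads per library, the least precise values here.

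The members and the 21 gene lists were chosen with earlier results of these data known. Named were every member, *Hnrnpl*, other Hox genes with a mean of at least 1 CPM (there were none), called genes of each list with at least 1 CPM (at most 4 per direction), tested genes of lists of 12 or fewer, and the 3 genes nearest to each member. Of 261 listed genes 260 were matched to the counts. A result for a gene of the TALE list is not reported here. Gene positions are from GENCODE M21. Promoters are from RefSeq. The core promoter elements were added after the windows had been read.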

Additional observations from a re-analysis of the deposited data

How the results depend on the processing

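*Hoxa7*, *Hoxa9*, *Meis1* and *Hlf* were called lower under all 8 alternatives that kept every library. Of 69 values of the 9 genes under these alternatives, 64 kept their direction and their side of the threshold, and the 5 others were calls gained by *Hoxa10*, *Hoxb4* and *Mllt3*. With limma-voom and sample weights 7 of the 9 genes were called lower, beside 2774 of the 14396 genes in that fit. *Hoxa5*, *Hoxa10* and *Hoxb4* were not tested with a filter of 1 CPM in 3 libraries. With 1 library left out, 35 of 54 values kept both, and between 0 and 5 genes were called lower. The value of *Mecom* then ran from -0.26 to 0.11, with the rise in the fit without hnRNP L deficient replicate 3, and was never called. None of the 9 genes was called higher, and no bin was called, in any alternative run.

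Over all genes, limma-voom with sample weights called 2576 higher and 2774 lower, limma-voom with the first part of the label number as a random effect called 2283 higher, and DESeq2 called 2227 lower. Without 1 library the counts ran from 5 to 2312 higher and from 0 to 2479 lower. Without composition factors 62.2% of the calls were lower, against 51.4%. The random effect was fitted because the labels share that part between some embryos. In that fit *Hoxb4* was at -0.62 and *Mllt3* was called lower, and no other call of the 9 genes differed from edgeR. That fit also replaced edgeR by limma-voom, which without the random effect was run only with sample weights. The weighted fit also called *Mllt3* lower (-0.45, limma-voom adjusted p = 0.0059) and had *Hoxb4* at -1.59. The call of *Mllt3* therefore cannot be credited to the random effect. The cause of these shifts was not tested. Depth limits *Hoxa5*, *Hoxa10* and *Hoxb4*, with 12 to 127 reads per library.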

Other observations

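Of 8 tested genes of the fetal hematopoietic program, *Hmga2*, a chromatin protein that promotes the self-renewal of fetal HSCs, and *Igf2bp2*, an mRNA-binding protein, were called lower. Over all genes tested 9.85% were called lower. *Hmga2* was at 79.3, 130 and 91.3 CPM in wt and 37.1, 37.5 and 36.7 CPM in hnRNP L deficient libraries (log2 fold change -1.43, standard error 0.18, edgeR adjusted p = 0.0110). *Igf2bp2* was at 27.65, 39.1 and 29.03 CPM in wt and 19.09, 16.04 and 12.42 CPM in deficient libraries (-1.01, standard error 0.20, edgeR adjusted p = 0.0213). *Lin28b*, an RNA-binding protein of fetal progenitors, was at 134, 105 and 104 CPM in wt and 142, 140 and 142 CPM in deficient libraries and was not called (0.31, edgeR adjusted p = 0.0865). No gene of the list was called higher by edgeR or DESeq2, against 3 by limma-voom and 2 at an unadjusted p-value under 0.05.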
